A study of Mus musculus with 6 samples.

Results

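The genes described here encode the enzymes of the citric acid (TCA) cycle with its pyruvate entry steps, and those of mitochondrial fatty acid beta-oxidation. They were chosen by symbol from textbook pathway knowledge, but with earlier results of these data known. The choice holds 23 TCA and pyruvate genes and 16 beta-oxidation genes, 39 of the 24346 genes listed in every library. Counted among the TCA genes are Idh1 and Mdh1, whose enzymes are cytosolic and lie outside the mitochondrial cycle. The material was RNA of CD11c+ cells from mouse spleen, labelled as dendritic cells, which take up and present antigen. Of the 6 sequenced libraries, 3 carry the label IL-33, a cytokine released by damaged cells, and 3 the label PBS, the buffer control. The labels give no strain, age, dose or time, leave unsaid whether IL-33 was given to mice or to cultured cells, and tie no library to an animal. The p-values therefore reflect only how far these libraries spread, and that spread may be technical.

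The TCA cycle condenses acetyl-CoA with oxaloacetate and oxidises the product back to oxaloacetate, passing electrons to the respiratory chain. Pyruvate dehydrogenase supplies acetyl-CoA from glucose carbon. Beta-oxidation supplies it from fatty acids, which enter mitochondria through the carnitine shuttle and are shortened by repeated rounds of dehydrogenation, hydration, a second dehydrogenation and thiolysis. In activated dendritic cells and macrophages these pathways are remodelled with the stimulus: inflammatory activation is known to interrupt the cycle at isocitrate and succinate dehydrogenase, whereas alternative activation by IL-4 is associated with oxidative metabolism.

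Most of these genes had more transcript with IL-33 on the scale as deposited. Values are FPKM (fragments counted per length of transcript and per depth of the library), so levels of different genes can be compared per length. Genes were tested by limma on log2(FPKM + 1), and a change is IL-33 minus PBS on that log2 scale with its standard error (SE). A gene is said to rise or fall where the Benjamini-Hochberg adjusted p over all 11518 tested genes was below 0.05. All members but Pcx passed the filter of 1 FPKM in at least 3 libraries. Of the 38 tested, 29 rose, none fell and 9 did not pass, where 28.0% of all tested genes rose and 25.5% fell. The lowest IL-33 value exceeded the highest PBS value for 34 of the 38, against 32.7% of all tested genes. The change was at least 1 for 2 members, Idh1 and Etfb, and for 3.26% of all tested genes. With libraries rescaled to equal FPKM totals, 11 rose, 4 fell and 23 did not pass, where 11.1% of all tested genes rose and 50.7% fell. The median change of all tested genes was 0.01 as deposited and -0.29 with equal totals, since the totals were 778391 to 841884 FPKM under IL-33 and 614522 to 641412 FPKM with PBS. Of the 38 members, 37 lay above that median under either scaling. With quantile normalization 8 TCA and 13 beta-oxidation genes were higher and none lower (22.1% and 25.0% of all tested genes). With cyclic loess 8 and 13 were higher and 1 lower (23.7% and 23.0%). Under both, 1 of the 8 was Dlat, which did not pass as deposited. At an adjusted p below 0.01 there were 10 and 11 higher and none lower (18.4% and 14.5%). With the replicate number as a block there were 11 and 11 higher and none lower (24.4% and 21.3%).

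**Figure D1:**
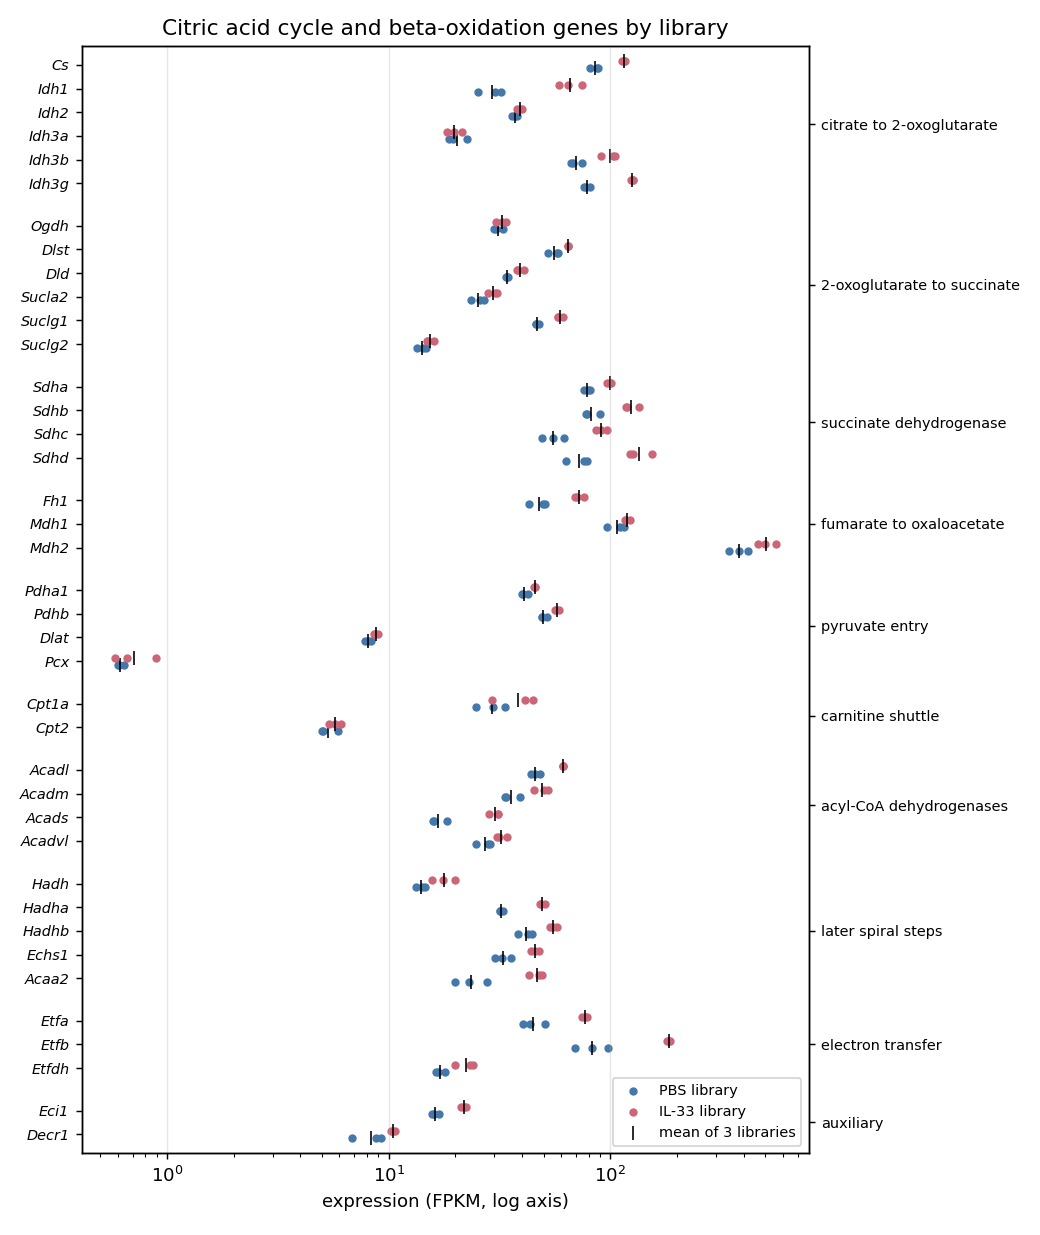
Expression of the 39 genes in FPKM (horizontal log axis) in each of 3 PBS and 3 IL-33 libraries, with the mean of each group as a tick, ordered by role. Mdh2 was the most abundant gene at 344 to 556 FPKM and Pcx the least at 0.584 to 0.896 FPKM, and the 2 groups of libraries were apart for 34 of the 38 tested genes.

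Beta-oxidation genes had a larger median change than TCA genes. Of 16 beta-oxidation genes 14 rose, with a median of 0.41, and of 22 tested TCA genes 15 rose, with a median of 0.27. These medians were 0.40 and 0.26 above the median of all genes as deposited. With equal totals the TCA median turned to -0.06 and the beta-oxidation median was 0.08, and both were still above the median of all genes, by 0.23 and 0.37. The mean log2(FPKM + 1) of beta-oxidation genes minus that of TCA genes was -0.96, -1.01 and -0.87 in PBS replicates 1, 2 and 3 and -0.87, -0.75 and -0.78 in IL-33 replicates 1, 2 and 3. PBS replicate 3 and IL-33 replicate 1 were nearly equal, so the groups are not taken as separate on this measure. As a share of all FPKM in the library, beta-oxidation genes made up 0.0725%, 0.0717% and 0.0803% with PBS and 0.0881%, 0.0972% and 0.0946% with IL-33. The share of the TCA genes was 0.224%, 0.228% and 0.237% with PBS and 0.239%, 0.256% and 0.240% with IL-33. Every IL-33 library thus held a larger share of beta-oxidation genes than every PBS library. For TCA genes the gap was narrower. PBS replicate 3 (0.237%) and IL-33 replicate 1 (0.239%) were nearly equal, so the groups are not taken as separate for the TCA share. Abundant genes such as Mdh2 weigh most in these shares.

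**Figure D2:**
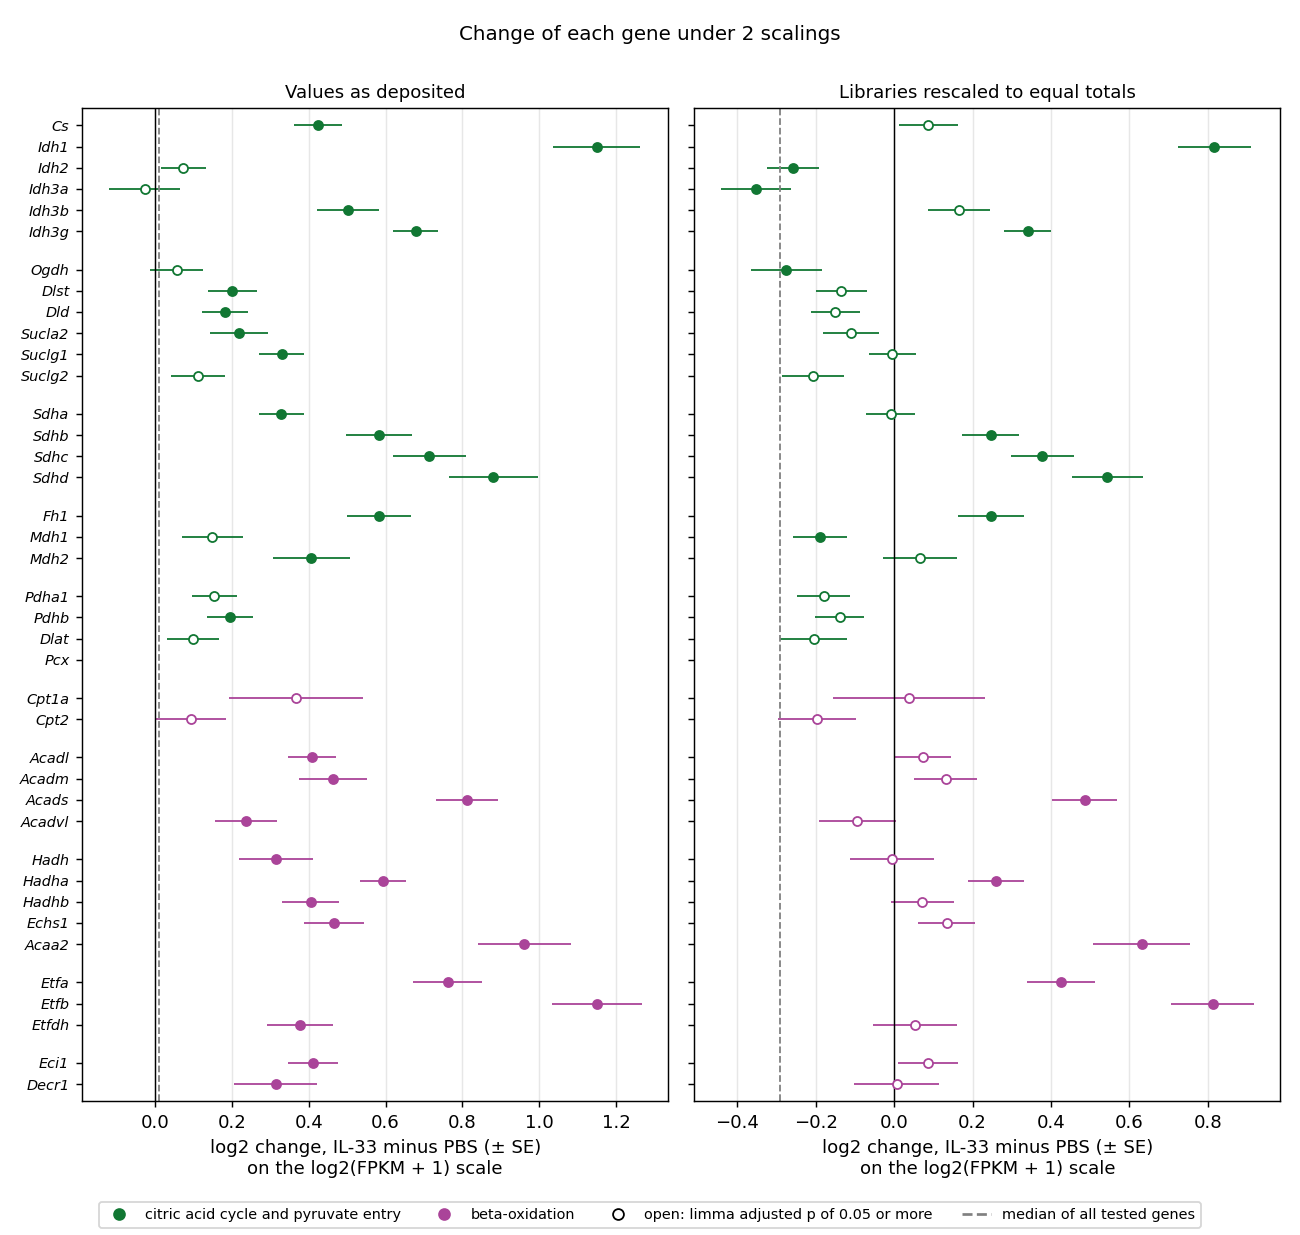
Log2 change with its standard error for each tested gene, IL-33 minus PBS, with values as deposited (left) and with libraries rescaled to equal totals (right). Filled points passed limma at an adjusted p below 0.05. The dashed line is the median of all tested genes, 0.01 on the left and -0.29 on the right. Idh1 and Etfb lie farthest to the right in both panels, and Idh2, Idh3a, Ogdh and Mdh1 are below 0 and filled with equal totals only.

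Of the enzymes from acetyl-CoA to 2-oxoglutarate, 4 of 6 rose. Citrate synthase, Cs, which opens the cycle, stood at 87.4, 81.0 and 87.7 FPKM under PBS against 112, 117 and 115 FPKM under IL-33 (change 0.42, SE 0.06, limma adjusted p = 0.00169), a call that was lost with equal totals (0.09). The largest change among the genes counted as TCA was that of Idh1, on chromosome 1 (65158616 to 65186500, minus strand, mm10). The next largest was that of Sdhd (0.88). Idh1 encodes the cytosolic NADP-dependent isocitrate dehydrogenase, which is not the enzyme of the mitochondrial cycle. Its level was 25.4, 32.0 and 30.2 FPKM under PBS against 74.2, 64.7 and 59.0 FPKM under IL-33, 2.26-fold more (change 1.15, SE 0.11, limma adjusted p = 0.000489). The lowest IL-33 library was well above the highest PBS library, and the change remained 0.82 with equal totals. Idh2, the mitochondrial NADP-dependent enzyme, was at 37.2, 37.9 and 36.2 FPKM under PBS against 39.9, 39.2 and 38.0 FPKM under IL-33, and did not pass (change 0.07, SE 0.06, limma adjusted p = 0.322). With equal totals Idh2 fell (-0.26, limma adjusted p = 0.0108). Idh1 was thus less abundant than Idh2 in each PBS library and more abundant in each IL-33 library, with an Idh1 to Idh2 ratio of 0.683, 0.844 and 0.835 with PBS and 1.86, 1.65 and 1.55 with IL-33.

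NAD-dependent isocitrate dehydrogenase, the enzyme of the cycle itself, is built from a catalytic subunit (Idh3a) and the subunits Idh3b and Idh3g. Idh3a had 19.6, 18.6 and 22.5 FPKM under PBS against 21.4, 19.8 and 18.2 FPKM under IL-33, with overlapping groups (change -0.03, SE 0.09, limma adjusted p = 0.822). Idh3g had 75.8, 80.6 and 77.9 FPKM under PBS against 126, 123 and 127 FPKM under IL-33 (change 0.68, SE 0.06, limma adjusted p = 0.000308). Idh3b had 67.9, 66.7 and 74.9 FPKM under PBS against 103, 105 and 90.5 FPKM under IL-33 (change 0.50, SE 0.08, limma adjusted p = 0.00247). With equal totals Idh3g still rose (0.34), Idh3b did not pass (0.17) and Idh3a fell (-0.35, limma adjusted p = 0.0106). The catalytic subunit was the least abundant of the 3 per length in every library, and the ratio of Idh3g to it went from 3.89 ± 0.43 with PBS to 6.37 ± 0.53 with IL-33 (SD, n = 3).

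From 2-oxoglutarate to succinate the changes were small: 4 of 6 genes rose as deposited, with changes from 0.18 to 0.33. With equal totals none of the 6 rose and all were below 0, Ogdh past the threshold (-0.27). On that scale 11.1% of all tested genes rose and 50.7% fell. All 6 genes still lay above the median of all tested genes (-0.29). Suclg1, the shared alpha subunit of succinyl-CoA synthetase, had 46.3 to 47.6 FPKM under PBS against 57.9 to 61.0 FPKM under IL-33 (change 0.33, SE 0.06, limma adjusted p = 0.0033). Its ATP-forming partner Sucla2 passed narrowly (23.6 to 26.9 and 28.0 to 31.0 FPKM, change 0.22, limma adjusted p = 0.0424), and its GTP-forming partner Suclg2 did not pass (13.4 to 14.8 and 15.0 to 15.9 FPKM, change 0.11, limma adjusted p = 0.21). Within the 2-oxoglutarate dehydrogenase complex, the catalytic E1 gene Ogdh overlapped between groups (30.0 to 32.6 and 30.6 to 34.0 FPKM, change 0.06, limma adjusted p = 0.525). The E2 and E3 genes Dlst (0.20, SE 0.06) and Dld (0.18, SE 0.06) passed. The calls of these small changes needed nearly all libraries. That of Dld was lost without any 1 of the 6 libraries, that of Dlst without any but PBS replicate 3, and that of Sucla2 without any but IL-33 replicate 3. The changes themselves then ranged from 0.15 to 0.20 for Dld, 0.16 to 0.23 for Dlst and 0.17 to 0.26 for Sucla2.

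All 4 subunits of succinate dehydrogenase, which is also respiratory complex II, rose. The 4 changes differed in size. Sdha, the flavoprotein that oxidises succinate, had 79.0, 81.1 and 76.3 FPKM under PBS against 101, 99.4 and 97.0 FPKM under IL-33 (change 0.33, SE 0.06, limma adjusted p = 0.0034). The iron-sulfur subunit Sdhb had 78.5, 78.0 and 90.1 FPKM under PBS against 134, 119 and 117 FPKM under IL-33 (0.58, SE 0.09, limma adjusted p = 0.00177). Of the membrane anchors, Sdhc had 49.1, 55.1 and 61.7 FPKM under PBS against 96.6, 85.9 and 90.8 FPKM under IL-33 (0.71, SE 0.09, limma adjusted p = 0.00122). The other anchor, Sdhd, had 63.3, 76.2 and 78.3 FPKM under PBS against 154, 127 and 123 FPKM under IL-33 (0.88, SE 0.12, limma adjusted p = 0.00121). The groups were apart for each subunit, and with equal totals Sdhb, Sdhc and Sdhd still rose (0.25, 0.38 and 0.54) while Sdha was at -0.01. Sdhd was less abundant than Sdha per length in PBS replicates 1 and 2 and more abundant in every IL-33 library, with ratios of 0.801, 0.940 and 1.03 with PBS and 1.52, 1.28 and 1.27 with IL-33.

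Among the last steps of the cycle, fumarase (Fh1) rose from 50.6, 49.9 and 43.0 FPKM to 76.3, 70.6 and 69.0 FPKM (change 0.58, SE 0.08, limma adjusted p = 0.00159), and at 0.25 it also rose with equal totals. Mdh2, the mitochondrial malate dehydrogenase that regenerates oxaloacetate, was the most abundant member in every library. It had 344, 381 and 418 FPKM under PBS against 497, 556 and 462 FPKM under IL-33 (change 0.41, SE 0.10, limma adjusted p = 0.0124), but turned to -0.07 with quantile normalization and -0.03 with cyclic loess. Mdh1, the cytosolic enzyme of the malate-aspartate shuttle, had 96.3 to 115 FPKM under PBS against 116 to 122 FPKM under IL-33 and did not pass (0.15, SE 0.08, limma adjusted p = 0.153). With equal totals Mdh1 fell (-0.19, limma adjusted p = 0.0434), as it did with cyclic loess (-0.18).

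Pyruvate entry had the lowest median change of the role groups (0.15). Pdhb, the E1 beta subunit of pyruvate dehydrogenase, was the only 1 of 3 tested genes to pass (48.9 to 51.8 and 56.5 to 58.8 FPKM, change 0.20, SE 0.06, limma adjusted p = 0.0274), and its call was lost without any 1 library except PBS replicate 2 and turned to -0.14 with equal totals. Pdha1, the E1 alpha subunit, had 39.8 to 42.3 FPKM under PBS against 45.1 to 45.9 FPKM under IL-33 (0.15, SE 0.06, limma adjusted p = 0.0595), and passed when no filter on low values was used (limma adjusted p = 0.039). Dlat, the E2 subunit, was at 7.79 to 8.37 and 8.62 to 8.92 FPKM (0.10, SE 0.07, limma adjusted p = 0.253). Dlat rose with quantile normalization (0.19, limma adjusted p = 0.0453) and cyclic loess (0.21, limma adjusted p = 0.0314), and was at -0.21 with equal totals. Pyruvate carboxylase, Pcx, which makes oxaloacetate from pyruvate, stayed below 1 FPKM in all 6 libraries, at 0.643, 0.607 and 0.601 FPKM under PBS against 0.584, 0.896 and 0.662 FPKM under IL-33. It was not tested for that reason, and its groups overlapped.

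Of the carnitine shuttle the members are its 2 palmitoyltransferases, and neither passed. Cpt1a, the outer-membrane transferase that controls entry of fatty acids, had 29.7, 24.7 and 33.7 FPKM under PBS against 29.1, 44.9 and 41.4 FPKM under IL-33 (change 0.37, SE 0.17, limma adjusted p = 0.111). IL-33 replicate 1 lay within the PBS range, and without that library Cpt1a passed (0.55, limma adjusted p = 0.0204), as it did with library weights (0.54). Cpt2, the inner-membrane transferase, had 5.02 to 5.94 and 5.38 to 6.11 FPKM (0.09, SE 0.09, limma adjusted p = 0.422). The carrier between them, Slc25a20, is no member and was named after its values were seen. It had 20.0, 18.9 and 24.9 FPKM under PBS against 30.1, 41.5 and 38.8 FPKM under IL-33, with groups apart, and it rose (0.76, SE 0.14, limma adjusted p = 0.0043, and 0.43 with equal totals).

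The 4 acyl-CoA dehydrogenases, which carry out the first oxidation on chains of different length, all rose. The short-chain enzyme Acads had the largest change, from 15.9, 16.0 and 18.4 FPKM to 31.2, 31.0 and 28.2 FPKM (0.81, SE 0.08, limma adjusted p = 0.000506), and still rose with equal totals (0.49). Acadm, the medium-chain enzyme, had 33.9, 39.1 and 33.5 FPKM under PBS against 52.6, 45.2 and 50.1 FPKM under IL-33 (0.46, SE 0.09, limma adjusted p = 0.00447). Acadl, the long-chain enzyme, had 45.5, 43.6 and 48.2 FPKM under PBS against 61.0, 60.9 and 61.2 FPKM under IL-33 (0.41, SE 0.06, limma adjusted p = 0.00196). Acadvl, the very-long-chain enzyme, had the smallest change (24.8 to 28.7 and 30.7 to 34.4 FPKM, 0.24, SE 0.08, limma adjusted p = 0.0416). Its call was lost without any 1 library except PBS replicate 3. With equal totals the calls of Acadm (0.13) and Acadl (0.07) were lost and Acadvl was at -0.09.

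The later steps of the spiral rose in 5 of 5 genes. Acaa2, the mitochondrial thiolase that releases acetyl-CoA, had 22.9, 20.0 and 27.9 FPKM under PBS against 47.5, 49.2 and 43.0 FPKM under IL-33, 1.97-fold more (change 0.96, SE 0.12, limma adjusted p = 0.00106, and 0.63 with equal totals). Hadha and Hadhb encode the alpha and beta chains of the trifunctional protein, which handles long chains. Hadha had 32.0, 31.7 and 32.9 FPKM under PBS against 48.4, 47.9 and 50.7 FPKM under IL-33 (0.59, SE 0.06, limma adjusted p = 0.000506, and 0.26 with equal totals). Hadhb had 38.2, 42.3 and 44.2 FPKM under PBS against 53.5, 57.5 and 54.9 FPKM under IL-33 (0.41, SE 0.07, limma adjusted p = 0.00374, and 0.07, not passed, with equal totals). The hydratase gene Echs1 rose by 0.47 (SE 0.08) and the short-chain hydroxyacyl dehydrogenase gene Hadh by 0.31 (SE 0.10). The call of Hadh was lost when replicate 1 or replicate 2 of either group was left out, and with equal totals Echs1 (0.13) and Hadh (-0.01) did not pass.

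Electron transfer from the acyl-CoA dehydrogenases to the respiratory chain showed the largest beta-oxidation change. Etfb, the beta subunit of the electron transfer flavoprotein, is on chromosome 7 (43444083 to 43457800, plus strand, mm10). It had 69.1, 82.5 and 97.1 FPKM under PBS against 187, 183 and 181 FPKM under IL-33, 2.21-fold more (change 1.15, SE 0.12, limma adjusted p = 0.000527). Its alpha partner Etfa had 40.4, 43.6 and 50.9 FPKM under PBS against 77.0, 74.6 and 78.1 FPKM under IL-33 (0.76, SE 0.09, limma adjusted p = 0.000867). Both still rose with equal totals (0.81 and 0.43). Etfdh, the membrane enzyme that passes the electrons to ubiquinone, had 16.7, 16.4 and 17.9 FPKM under PBS against 20.0, 24.1 and 23.2 FPKM under IL-33 (0.38, SE 0.09, limma adjusted p = 0.00903, and 0.05, not passed, with equal totals). The 2 auxiliary enzymes for unsaturated fatty acids, Eci1 (0.41, SE 0.06) and Decr1 (0.31, SE 0.11), rose as deposited and did not pass with equal totals (0.09 and 0.01). The call of Decr1 was also lost without any 1 library except PBS replicate 3.

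Subunits of one enzyme and paired isoenzymes were seen to move unevenly, and 18 ratios between partner genes describe this within each library, where any scaling factor of the library cancels. A trend with transcript length does not cancel. With trends of length and GC content removed from each library, Sdhb and Sdha changed by 0.28 and 0.26, nearly alike. Idh1 and Idh2 then still differed, at 1.08 and -0.16. The groups did not overlap for 10 of the 18, of which 9 ratios were higher and 1 lower with IL-33. The direction depends on which gene of a pair was made the numerator. Some ratios also share a denominator, such as Sdha or Idh3a. The split into higher and lower is therefore no result in itself. These ratios are a description: with 3 libraries a side an exact permutation test cannot go below 0.1, and the share of other gene pairs that separate was not computed. The log2 change of the ratio was 1.10 for Idh1 to Idh2, 0.71 for Idh3g to Idh3a, 0.56 for Sdhd to Sdha, 0.39 for Sdhc to Sdha and 0.39 for Etfb to Etfa. The ratio of Etfdh to Etfa was 0.412, 0.376 and 0.352 with PBS and 0.260, 0.323 and 0.297 with IL-33 (log2 change -0.38). Pairs whose ratios overlapped between groups included Sucla2 to Suclg2, Pdhb to Pdha1, Hadha to Hadhb and Cpt1a to Cpt2.

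**Figure D3:**
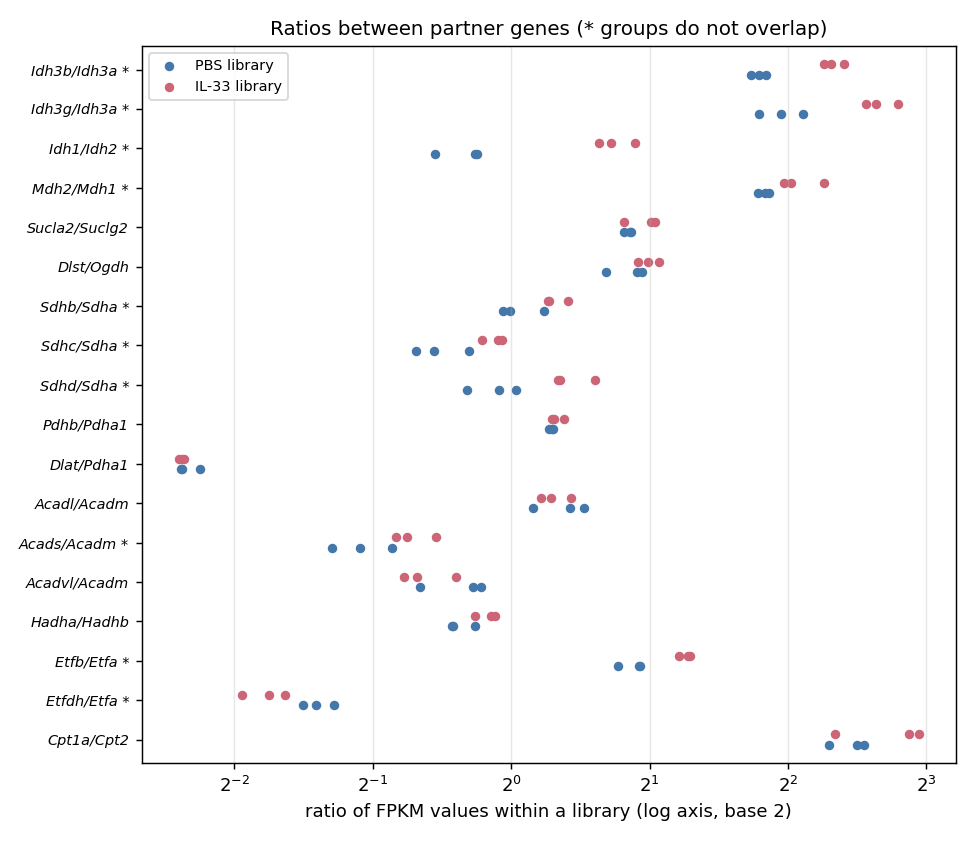
Ratio of FPKM values of 18 pairs of partner genes (horizontal log axis, base 2) in each PBS and IL-33 library, with an asterisk where the groups do not overlap. The ratio of Idh1 to Idh2 is below 1 in the PBS libraries (0.683 to 0.844) and above 1 in the IL-33 libraries (1.55 to 1.86).

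Members with shorter transcripts had larger changes. Over the 38 tested members the Spearman correlation of the change with the length of the longest annotated transcript (GENCODE M21) was -0.40, and over 11090 tested genes with a length it was -0.44; genes of one set of libraries are not independent, so this is a description. Etfb (893 nucleotides), Sdhd (1231) and Etfa (1392) were short, and Ogdh (4127) and Dlat (4035) were long. The order was not strict: Idh1 (2302) lay near the members' median of 2460.5 nucleotides, and Sdhc (3171) and Hadha (4017) above it. After trends with length and GC content were removed from each library, 12 of 22 TCA genes and 12 of 16 beta-oxidation genes rose and none fell, where 25.9% of genes rose and 19.2% fell. The medians were then 0.17 for TCA genes and 0.45 for beta-oxidation genes. The change also went with the mean PBS level, with a Spearman correlation of 0.32 over the 38 members and 0.18 over the 11090 genes. Within TCA genes it was 0.49, against -0.40 for length. Within beta-oxidation genes it was 0.53, against -0.48 for length. The PBS level also enters the change itself, so this is a description too. Whether length or level plays a part was not tested.

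**Figure D4:**
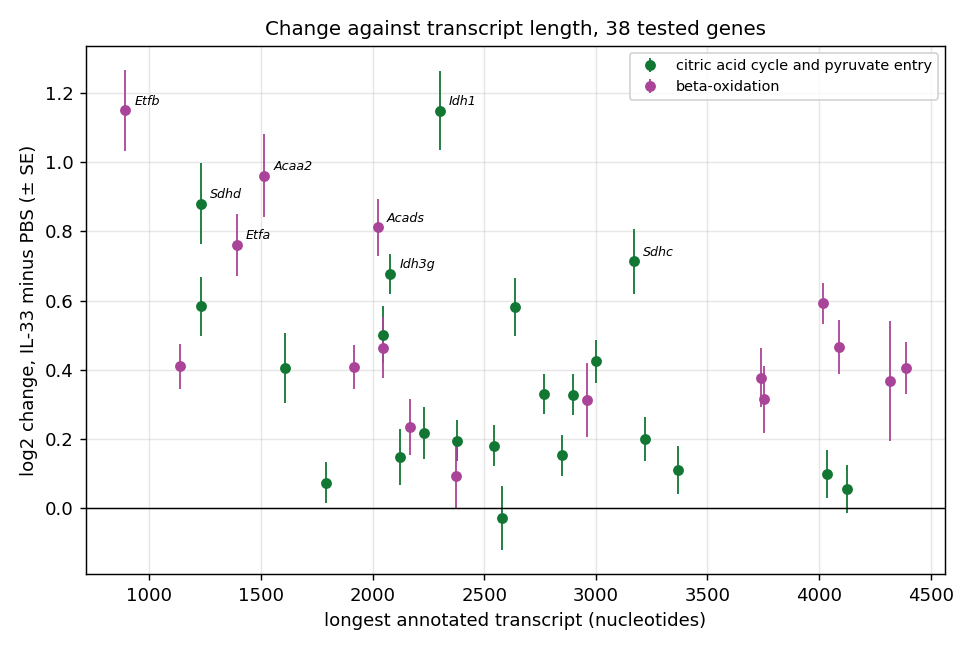
Log2 change with its standard error (vertical axis) against the length of the longest annotated transcript in nucleotides (horizontal axis) for the 38 tested genes, coloured by pathway. Etfb is the shortest at 893 nucleotides with a change of 1.15, whereas Idh1 reaches the same change at 2302 nucleotides.

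Several members share a promoter region with a gene on the opposite strand, and these neighbours offer a comparison by position. In GENCODE M21 (GRCm38, the assembly also called mm10), 12 members have a protein-coding gene on the other strand that starts within 1000 bases. The pairs in which both genes rose were Hadha with Hadhb, whose starts are 86 bases apart, Idh3g with Ssr4 (131 bases) and Sdhd with Timm8b (98 bases). For scale, 28.0% of all tested genes rose and 25.5% fell. Whether position plays a part in these pairs was not tested. Ssr4, a subunit of the endoplasmic reticulum translocon complex, had 115 to 136 FPKM under PBS against 238 to 268 FPKM under IL-33 (change 0.97, SE 0.09, and 0.63 with equal totals). Timm8b, a chaperone of mitochondrial protein import, had 51.3 to 63.6 FPKM under PBS against 88.3 to 106 FPKM under IL-33 (change 0.73, SE 0.10, and 0.39 with equal totals). In other pairs the neighbour did not rise. Styxl1, which starts 95 bases from Mdh2, fell from 1.83 to 2.09 FPKM to 0.84 to 1.02 FPKM (change -0.62, SE 0.10, limma adjusted p = 0.00231), and Pikfyve, 183 bases from Idh1, fell by 0.27 (SE 0.07), but turned to 0.22 after removal of length and GC trends. Ccdc127, 29 bases from Sdha, did not pass (0.02, SE 0.08) but fell with equal totals (-0.28) and rose after removal of length and GC trends (0.45). Prox2 beside Dlst was not tested, and Wdpcp beside Mdh1, Paox beside Echs1 and 4930579G24Rik beside Etfdh did not pass, though Paox rose after removal of length and GC trends (0.32). Whether reads were assigned by strand is not given in the sources used here, so values of the members whose bodies overlap a gene on the other strand, such as Idh3b with Nop56 and Fh1 with Kmo, may include its reads.

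The windows of the 3 pairs that rose together are shown because they lie between or across both start sites. They are from RefSeq (GRCm38.p6), 250 bases before to 50 after the annotated start of the named member, 5′ to 3′ on its strand, and the first single capital marks the annotated start. In the last of them the later capitals mark a match to the motif TCAAGGTCA, read on the opposite strand.
Hadhb, chr5:30155003-30155302, plus strand: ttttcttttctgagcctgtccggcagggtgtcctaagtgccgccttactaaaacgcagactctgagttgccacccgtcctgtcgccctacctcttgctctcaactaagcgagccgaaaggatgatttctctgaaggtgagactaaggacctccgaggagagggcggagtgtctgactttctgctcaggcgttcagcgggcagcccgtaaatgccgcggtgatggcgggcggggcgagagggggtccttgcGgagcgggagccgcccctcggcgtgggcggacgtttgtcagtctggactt
Idh3g, chrX:73786848-73787147, minus strand: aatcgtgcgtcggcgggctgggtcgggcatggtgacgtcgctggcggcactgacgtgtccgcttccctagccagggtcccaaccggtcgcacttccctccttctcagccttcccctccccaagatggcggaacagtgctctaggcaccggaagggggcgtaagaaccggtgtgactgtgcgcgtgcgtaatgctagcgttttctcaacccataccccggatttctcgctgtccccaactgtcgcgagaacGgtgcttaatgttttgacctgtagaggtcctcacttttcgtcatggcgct
Sdhd, chr9:50603800-50604099, minus strand: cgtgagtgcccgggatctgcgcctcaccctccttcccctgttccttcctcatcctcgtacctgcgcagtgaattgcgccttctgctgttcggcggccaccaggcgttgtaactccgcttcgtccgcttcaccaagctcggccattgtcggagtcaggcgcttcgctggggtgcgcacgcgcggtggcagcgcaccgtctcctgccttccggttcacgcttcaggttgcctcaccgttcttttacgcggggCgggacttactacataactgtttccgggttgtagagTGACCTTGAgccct

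RefSeq windows were matched for 35 of the 39 members, 42 windows of 300 bases in all. Each was searched on both strands for 5 motifs known from promoters of metabolic genes. TCAAGGTCA, the site of estrogen-related receptors, was in 1 of the 42 windows (Sdhd), at bases 287 to 295, and in 0.424% of all 32817 promoter windows. The palindromic site of NRF1, a regulator of mitochondrial genes, was in 1 window (Etfdh) and in 0.966% of all. CCGGAAGT, an ETS site, was in windows of 2 members (Cpt2 and Dlst) and in 3.89% of all. TGACGTCA, the cyclic AMP response element, was in 4 windows of 2 members (Mdh2 and Ogdh) and in 1.79% of all. The Ogdh windows overlap and hold the same match, so these 4 windows are not 4 separate sites. The direct repeat with 1 spacer base that PPAR receptors bind was in none of the 42 and in 0.0396% of all. Of the genes with a match, Sdhd, Etfdh, Mdh2 and Dlst rose as deposited and Cpt2 and Ogdh did not pass.

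Around the TCA cycle, 39 other genes of pyruvate, anaplerotic and glutamate metabolism were listed. Of 33 tested, 20 rose and 1 fell (median 0.33), where 28.0% and 25.5% of all tested genes did. With equal totals 4 rose and 6 fell, where 11.1% and 50.7% did. Got1, the cytosolic aspartate aminotransferase of the malate-aspartate shuttle, had the largest change of this list, from 14.2, 14.9 and 15.0 FPKM to 39.8, 45.1 and 40.7 FPKM (1.45, SE 0.07, limma adjusted p = 4.76e-05). Me2, the mitochondrial malic enzyme, rose by 0.71 (SE 0.06), and Glud1, glutamate dehydrogenase, by 0.67 (SE 0.07). These 3 also rose with equal totals. The cytosolic aconitase gene Aco1 rose by 0.52 (SE 0.09) and the pyruvate carrier gene Mpc1 by 0.48 (SE 0.09), both lost with equal totals. Irg1, which encodes the enzyme that diverts aconitate to itaconate, was low, at 0.945, 0.867 and 1.41 FPKM under PBS against 2.75, 4.48 and 1.79 FPKM under IL-33 (0.90, SE 0.24, limma adjusted p = 0.0165). Its groups were apart, with the IL-33 libraries spread widely, and the call was lost without PBS replicate 2 (0.83). Pdk4, the kinase that inhibits pyruvate dehydrogenase, was at most 0.166 FPKM in any library and was not tested.

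Of 43 other genes of fatty acid uptake, activation and oxidation, 36 were tested, 16 rose and 2 fell (median 0.21), and with equal totals 5 rose and 11 fell, beside the same shares of all genes. Crat, carnitine acetyltransferase, which moves short acyl groups between coenzyme A and carnitine, rose most, from 4.28, 4.42 and 4.43 FPKM to 17.0, 14.4 and 12.5 FPKM (1.53, SE 0.11, limma adjusted p = 0.000201, and 1.23 with equal totals). The lowest IL-33 library was far above the highest PBS library. The isomerase gene Eci2 (0.79, SE 0.06) and the peroxisomal thiolase gene Acaa1a (0.84, SE 0.08) rose under both scalings. Hsd17b4, the peroxisomal bifunctional enzyme (0.51, SE 0.08), and Lipa, the lysosomal acid lipase (0.56, SE 0.10), rose as deposited, and their calls were lost with equal totals (0.17 and 0.23). Hibch, an enzyme of valine breakdown, fell by 0.31 (SE 0.07), a call lost with cyclic loess (-0.20). The nuclear receptor gene Ppard fell by 0.27 (SE 0.09), and this call was lost without any 1 library except IL-33 replicate 1. Cpt1b, the muscle form of the outer transferase, was at 1.52, 0.0031 and 1.63 FPKM under PBS against 1.20, 1.04 and 0.630 FPKM under IL-33 and did not pass (limma adjusted p = 0.925).

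The sorted cells held transcript of several cell types, and the balance differed between groups. The defining dendritic genes Itgax (228 to 249 FPKM with PBS, 272 to 300 with IL-33), Flt3 (108 to 119, then 65.4 to 86.6) and Zbtb46 (36.1 to 37.6, then 22.3 to 25.8) were present in every library; Itgax rose and Flt3 and Zbtb46 fell. Of 12 dendritic markers 4 rose and 6 fell. In bulk samples, fewer cells of a type and less RNA per cell cannot be told apart. Of 10 eosinophil markers 8 rose and none fell, with summed levels of 220 to 312 FPKM under PBS against 882 to 1263 FPKM under IL-33. Most of these sums came from Ear2, with means of 216 FPKM under PBS and 773 FPKM under IL-33. The mean of Prg2 went from 3.40 FPKM under PBS to 174 FPKM under IL-33. Means of Ear1 went from 0.354 to 51.3 FPKM and of Ear6 from 0.0451 to 38.1 FPKM. Alox15 went from 0.907 to 15.6 FPKM, Siglecf from 1.39 to 14.3, Epx from 0.0243 to 8.61 and Prg3 from 2.08 to 4.26 FPKM. The receptor genes Ccr3 (change 0.01, SE 0.25) and Il5ra (-0.21, SE 0.25) did not pass, with overlapping groups. Epx, Ear1 and Ear6 were each listed at 0 in at least 1 PBS library. Of 8 tested neutrophil markers 7 rose (summed 479 to 791 and 1218 to 2455 FPKM), with Elane listed at 0 in 1 PBS library. Of 10 macrophage markers 2 rose (2311 to 4011 and 3636 to 4900 FPKM, overlapping). All 10 genes listed as T and NK cell markers fell (443 to 597 and 186 to 269 FPKM). Among them Cd4 (62.1 to 73.4 FPKM under PBS) and Cd8a (41.3 to 71.8 FPKM) were above Cd3e (9.93 to 29.1 FPKM). Which cells gave the Cd4 and Cd8a transcript was not tested. Of 10 B and plasma cell markers 4 rose and 1 fell (419 to 859 and 766 to 852 FPKM). The 4 were the plasma cell genes Jchain (4.32-fold), Sdc1 (3.57-fold), Mzb1 (3.18-fold) and Xbp1 (1.77-fold), each with groups apart. The 1 that fell was the B cell gene Cd22, and Ms4a1, Cd79a, Cd79b and Prdm1 were among those that did not pass. The part of these cells in the changes of metabolic genes was not tested. The median coefficient of variation of the 38 members was 3.95% within the IL-33 group and 6.98% within the PBS group. Sequencing depth relative to PBS replicate 1, read from the steps between values of at most 0.3 FPKM, was 0.946 to 1.07 with IL-33 and 1.00 to 1.22 with PBS. This measure also carries any scaling between libraries, which is not given, so it may not reflect depth alone. Absolute depth is unknown, since FPKM hold no counts.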

How the data were processed

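RNA sequencing libraries of 3 IL-33 and 3 PBS samples were analysed. For each library the authors deposited gene symbols with FPKM values. Per the submitters' processing notes, TopHat2 2.0.13, Bowtie2 2.2.3, SAMtools 0.1.19 and Cuffnorm 2.2.1 were used with build mm10; annotation, scaling between libraries and strand handling: not given in the sources used here.

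Values were analysed as log2(FPKM + 1), which understates changes of low genes. The 11518 genes that reached 1 FPKM in 3 or more libraries were fitted with limma 3.58.1 (R 4.3.3), with a variance trend, 1 treatment coefficient and no block, two-sided, with Benjamini-Hochberg adjustment over all tested genes. The script was tested on simulated data. Lengths, positions and GC content came from GENCODE M21, with lengths for 11090 tested genes. Figures used Python 3.11.15 and matplotlib 3.10.9.

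The members, lists, partner pairs and motifs were chosen with earlier results of these data known. Named genes were every member; of each list of other pathway genes, up to 5 rises and 5 falls with the smallest adjusted p; and Irg1, Pdk4 and Cpt1b. Some genes under this rule are not reported here. Slc25a20, neighbouring and marker genes were named after their values were seen. The 20 alternatives covered pseudocount, filter, scaling, variance, weights, block, threshold and leaving out each library.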

Additional observations from a re-analysis of the deposited data

How the results depend on the processing

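Of the 29 members called higher, 11 kept that call under all 20 alternatives: Idh1, Idh3g, Sdhb, Sdhc, Sdhd, Fh1, Acads, Hadha, Acaa2, Etfa and Etfb. Leaving out 1 library in turn lost 1 or more calls for 7 of the 29, and none of the other 22 was lost that way.

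Scaling had the largest effect. With equal totals 1280 genes were higher and 5840 lower, 6 TCA genes were higher and 4 lower with a median of -0.059, and 5 beta-oxidation genes were higher with a median of 0.0805. Of the other pathway genes, 4 TCA genes were higher and 6 lower, and 5 fatty acid genes were higher and 11 lower. With quantile normalization 8 TCA genes were higher (median 0.126), and with cyclic loess 8 were higher and 1 lower (median 0.122). With length and GC trends removed the TCA median was 0.175, and of the other pathway genes 12 TCA genes were higher and none (0) lower and 1 fatty acid gene was lower. At an adjusted p of 0.01 there were 2125 higher and 1670 lower genes, and of the other pathway genes 12 TCA genes and 9 fatty acid genes were higher and 1 fatty acid gene lower. The count of lower fatty acid genes was also 1 without a filter, with cyclic loess and with the replicate block.

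Changes that turned with equal totals were Idh2 -0.26, Ogdh -0.27, Dlst -0.13, Dld -0.15, Sucla2 -0.11, Suclg1 -0.0051, Suclg2 -0.21, Sdha -0.0083, Mdh1 -0.19, Pdha1 -0.18, Pdhb -0.14, Dlat -0.21, Cpt2 -0.20, Acadvl -0.094, Hadh -0.0055, Cpt1b -0.11, and the neighbours Ccdc127 -0.28, Wdpcp -0.045, Paox -0.13 and 4930579G24Rik -0.097. With quantile normalization they were Idh2 -0.085, Ogdh -0.058, Dlst -0.012, Mdh1 -0.12, Mdh2 -0.065, Pdha1 -0.018 and Pdhb -3.47e-05, and with cyclic loess Idh2 -0.069, Ogdh -0.055, Dlst -0.024, Mdh1 -0.18, Mdh2 -0.035, Pdha1 -0.012 and Pdhb -0.0082. With length and GC trends removed they were Idh2 -0.16, Cpt2 -0.058, Cpt1b -0.033 and Pikfyve 0.22. Library weights turned Idh3a (0.0082). Ratios that turned were Dlat to Pdha1 (0.21 with quantile normalization, 0.225 with cyclic loess, 0.058 with length and GC trends removed), Sucla2 to Suclg2 (-0.011 with cyclic loess), Pdhb to Pdha1 (-0.017 with length and GC trends removed) and Acadl to Acadm (0.022 without PBS replicate 3). Beyond the scaling itself, the cause was not tested.

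With 1 library left out, 2499 to 3107 genes were higher and 2211 to 2642 lower. TCA genes higher were 11 to 12 (median 0.25 to 0.30) and beta-oxidation genes 11 to 14 (median 0.40 to 0.45). Of the other genes, 16 to 19 TCA genes and 13 to 16 fatty acid genes were higher, and 1 to 3 fatty acid genes lower. Changes of Idh3a ranged from -0.082 to 0.047, of Cpt1b from -0.41 to 0.29 and of Ccdc127 from -0.032 to 0.064. Idh3a turned to 0.028 without IL-33 replicate 3 and 0.047 without PBS replicate 3, Cpt1b to -0.044 without IL-33 replicate 1 and -0.41 without PBS replicate 2, and Ccdc127 to -0.032 without IL-33 replicate 2 and -0.020 without PBS replicate 1. With the replicate number as a block 11 TCA and 11 beta-oxidation genes were higher. Same-numbered libraries' deviations correlated at 0.075, -0.054 and 0.089, so the numbers were not treated as pairs.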
